A study of Homo sapiens with 24 samples.

Results

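VGF is the gene of a secreted neuropeptide precursor, and its RNA was followed here in H838 cells, an established human non-small cell lung cancer line, over 10 times around the wounding of the cell layer. The bead array carried 1 probe assigned to VGF among 47286 probes, and VGF was 1 of 11494 genes that passed the detection filter. The gene was chosen because it was higher beside endothelial cells and lower late after scratching. These 2 features, its levels and its changes from 0 h are therefore given as descriptions, without a test.

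VGF protein belongs to the extended granin family. It is sorted into dense-core granules, cut by prohormone convertases into short peptides and released when the cell is stimulated. In neurons and neuroendocrine cells its transcription is raised by nerve growth factor, BDNF and cyclic AMP, with a cyclic AMP response element (CRE) in the promoter, as worked out in the rat gene. One of its peptides, named TLQP for its first residues, binds the complement receptor C3AR1, and C1QBP and HSPA8 have been described as further binding proteins.

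H838 cells grew in the wells of a transwell plate, with a porous filter above them that held a second layer of cells. In the heterogeneous co-culture that layer was HPAEC, primary human pulmonary artery endothelial cells. In the control it was H838 again. All cultures, controls included, were kept in endothelial growth medium with low serum, EGF, basic FGF, an IGF analogue, VEGF, heparin, ascorbic acid and hydrocortisone. Confluent H838 layers were scratched many times and lysed at 9 later times, from 0.5 h and hourly between 1 and 5 h to 10, 15 and 24 h, and layers lysed at 0 h were unscratched. Each co-culture had 12 arrays, with 2 at 0 h, 2 at 24 h and 1 at every other time. No unscratched array was taken after 0 h, so wounding and time in culture cannot be told apart. Nothing in the labels ties the duplicates to independent cultures, and p-values therefore reflect only variation among these samples, which may be technical.

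The 24 arrays lay on 2 chips. Chip 1 held 10 HPAEC arrays and 2 H838 arrays, and chip 2 held 2 HPAEC arrays and 10 H838 arrays, so co-culture and chip nearly coincided. Between 15488 and 17555 probes were detected per array. The 0 h and 24 h arrays labelled HPAEC replicate 2 carry HPAEC in their title and co-culture label but H838 as the second cell line, and they were grouped by title. The lung epithelial markers NKX2-1 and EPCAM were detected on all 24 arrays and KRT18 on 21, whereas CDH1 was detected on 4 and KRT7 and SFTPB on 0. Of 16 endothelial markers 3 passed the detection filter, MMRN1 on 24 arrays, EGFL7 on 21 and TEK on 3, and KDR, VWF and CDH5 were not detected on any (0 of 24). MMRN1, a platelet and endothelial adhesion protein, was the 1 marker that passed, late, at 0.27 ± 0.09 (limma log2, adjusted p = 0.0458), and lost the call under 10 of 16 alternatives. Its part in the late values of VGF was not tested. The summed raw intensity of the 20 endothelial probes ran from 2165 to 2384 beside HPAEC and from 2175 to 2430 beside H838. Of 10 neuroendocrine markers, DLL3 and POU3F2 were detected on all 24 arrays, CHGA on 21, SYP on 10, and INSM1 and NCAM1 on 0.

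VGF lies on chromosome 7 at 101162509 to 101169952 in GRCh38.p14, on the minus strand. The position of the array probe within the gene is not given here. The 250 bases before the start that the RefSeq promoter table gives for VGF (chr7:101165570-101165819, minus strand) are shown because they hold a complete CRE, the element through which the rat gene answers to cyclic AMP. That start lies within the annotated span of the gene, downstream of its 5′ end, and other starts are not shown here. The same window of ADM (chr11:10304823-10305072, plus strand), the peptide hormone gene whose course was most like that of VGF, is set beside it. Both run 5′ to 3′ and end at the base before the start, and capitals mark CCAAT, TGACGTCA and TATAA.
VGF: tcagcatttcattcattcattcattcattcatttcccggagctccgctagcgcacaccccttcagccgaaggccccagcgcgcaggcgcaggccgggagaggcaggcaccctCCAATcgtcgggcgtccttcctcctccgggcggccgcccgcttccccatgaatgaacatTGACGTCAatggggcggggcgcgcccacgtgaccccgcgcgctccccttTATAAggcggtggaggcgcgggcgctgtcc
ADM: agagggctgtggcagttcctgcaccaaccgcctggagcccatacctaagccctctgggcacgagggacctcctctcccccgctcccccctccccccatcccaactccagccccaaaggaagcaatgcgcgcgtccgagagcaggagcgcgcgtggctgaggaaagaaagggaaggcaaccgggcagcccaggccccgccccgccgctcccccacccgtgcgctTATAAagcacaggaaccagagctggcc

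In the VGF window the palindromic CRE, TGACGTCA, began 79 bases before the start. Searched on both strands, TGACGTCA was present in 1.65% of 35116 RefSeq promoters of the same length. Of the 9295 tested genes with a promoter entry, 282 besides VGF held it. A CCAAT box began 138 bases before the start (CCAAT, in 32% of promoters) and TATAA began 30 bases before it (18.9% of promoters), overlapping a TATAA match on the other strand. An E box, CACGTG, began 54 bases before the start (6.34% of promoters), and the GC box GGGCGG matched 3 times (42.6% of promoters). The ADM window held TATAA 27 bases before the start and no TGACGTCA. These matches describe letters in the sequence and say nothing of binding in H838 cells.

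VGF RNA was well above background in H838 cells in both co-cultures. It was detected on all 24 arrays, and its raw intensity exceeded that of 88.9% to 96.1% of the array's 47286 probes. Only 15488 to 17555 of these probes were detected per array, so most of that comparison set was not above background. Beside HPAEC the normalized intensity was 2656 and 2729 at 0 h, 2309 at 0.5 h, 2447 at 1 h, 2386 at 2 h, 2234 at 3 h, 2386 at 4 h, 2381 at 5 h, 1744 at 10 h, 1439 at 15 h, and 949 and 1022 at 24 h. The HPAEC arrays thus stayed within a narrow band from 0.5 to 5 h and were lower at each later time. Beside H838 it was 1754 and 1712 at 0 h, 1656 at 0.5 h, 1529.7 at 1 h, 1749 at 2 h, 1617 at 3 h, 1564 at 4 h, 1385 at 5 h, 1244 at 10 h, 989.8 at 15 h, and 752 and 757 at 24 h. All 8 HPAEC arrays up to 5 h lay above all 8 H838 arrays up to 5 h. Over all arrays the level spanned 3.63-fold. In bulk lysates, fewer VGF-expressing cells and less VGF RNA per cell cannot be told apart.

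**Figure D1:**
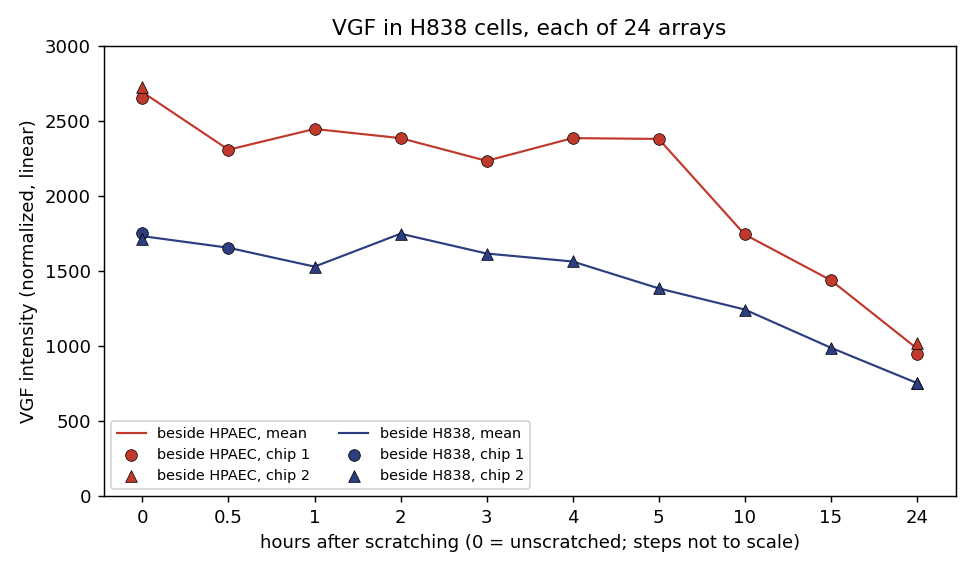
VGF normalized intensity in H838 cells on each of the 24 arrays against hours after scratching (steps not to scale), for cultures beside HPAEC and beside H838. The HPAEC arrays to 5 h sit between 2234 and 2729 and the H838 arrays to 5 h between 1385 and 1754, and both series are lowest at 24 h.

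Ordered by level, the 20 combinations of co-culture and time ran from HPAEC at 0 h to H838 at 24 h. The yardstick was the spread of duplicates, a pooled SD of 0.042 on the log2 scale over 4 pairs, all from 0 h and 24 h. By it, 7 of the 19 steps between neighbours exceeded the spread of the step. These followed HPAEC at 0 h, HPAEC at 3 h, H838 at 0 h, H838 at 1 h, H838 at 5 h, H838 at 10 h and HPAEC at 24 h. Among themselves, the HPAEC levels from 0.5 to 5 h had no step between neighbours beyond the spread. HPAEC at 10 h (1744) lay between H838 at 2 h (1749) and H838 at 0 h (mean 1733), and HPAEC at 24 h (mean 985) lay next to H838 at 15 h (989.8). The order of H838 at 10 h and 15 h depended on scaling. Its raw intensity was 1293 at 10 h and 1358 at 15 h, against 1244 and 989.8 after normalization and 1299 and 1060 in the authors' normalized values.

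The level beside HPAEC was above that beside H838 at 10 of 10 times. The log2 difference was 0.64 at 0 h (1.55-fold), before any scratch. It was 0.48 at 0.5 h, 0.68 at 1 h, 0.45 at 2 h, 0.47 at 3 h, 0.61 at 4 h, 0.78 at 5 h (1.72-fold), 0.49 at 10 h, 0.54 at 15 h and 0.38 at 24 h (1.30-fold). The widest gap was at 5 h and the narrowest at 24 h. Fitted over all times with chip as a term, the difference was 0.55 ± 0.06 (log2 ± SE, 1.47-fold, 12 arrays in each co-culture), and 8 of the 11494 genes had a higher one. Pairs of arrays that shared both time and chip gave 0.60 and 0.67 at 0 h and 0.48 at 0.5 h. At 24 h, HPAEC replicate 2 was 0.44 above the mean of both H838 arrays, all on chip 2. Both HPAEC arrays on chip 2 carry the conflicting labels, so the 0.67 at 0 h and the 0.44 at 24 h rest on them. The other times had no arrays of both co-cultures on 1 chip, and whether chip contributed to the difference was not tested. The fitted value stayed between 0.52 and 0.57 when any 1 of the 8 duplicated arrays was left out, the 2 with conflicting labels included.

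**Figure D2:**
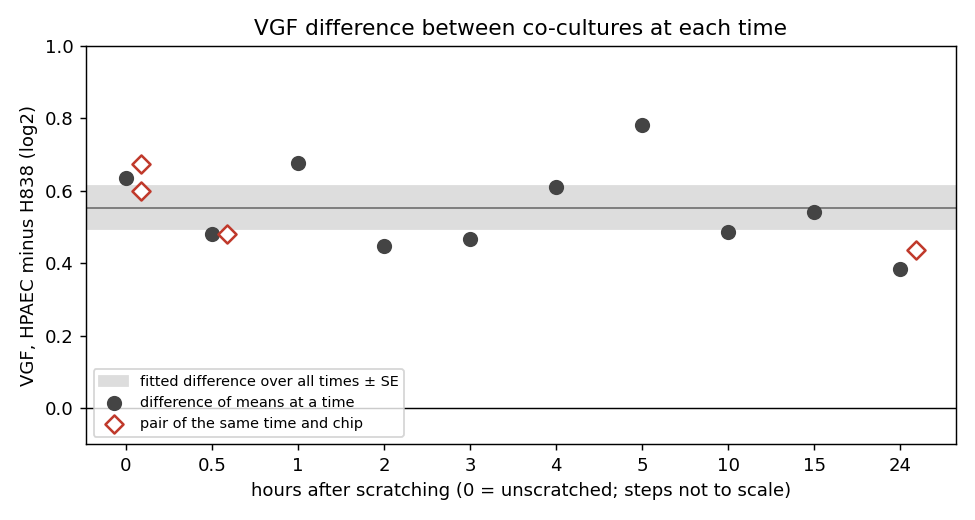
Log2 difference in VGF between H838 cells beside HPAEC and beside H838 at each time (filled points), between arrays of the same time and chip (open diamonds, at 24 h against the mean of both H838 arrays), and fitted over all times (line, band of ± 1 SE). All points lie above 0, from 0.38 at 24 h to 0.78 at 5 h, around the fitted 0.55.

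With both co-cultures in 1 fit, the change of VGF from 0 h was -0.14 ± 0.09 at 0.5 h (log2 ± SE). At 5 h it was -0.25 ± 0.09, at 10 h it was -0.55 ± 0.09, at 15 h -0.86 ± 0.09 and at 24 h -1.33 ± 0.07. Most of the loss thus lay after 5 h. As a share of the 0 h mean, the level beside HPAEC was 88.4% at 5 h, 64.8% at 10 h, 53.5% at 15 h and 36.6% at 24 h. Beside H838 it was 79.9%, 71.8%, 57.1% and 43.5% at the same times. Averaged over windows, the change from 0 h was -0.13 ± 0.07 early (0.5 to 2 h), -0.20 ± 0.07 in the middle (3 to 5 h) and -0.91 ± 0.06 late (10 to 24 h, to 0.531 of the 0 h level). Only EGR1 (-1.27), TEF (-1.09), DBP (-0.96) and CXCR1 (-0.96) had lower late values among the genes tested. EGR1 is an immediate-early transcription factor, and TEF and DBP are clock output factors.

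Whether the course after the scratch differed between the co-cultures was not used in choosing VGF, and it was tested. The late change was -1.14 ± 0.20 (log2 ± SE) beside HPAEC and -0.86 ± 0.21 beside H838. The difference of these changes was -0.28 ± 0.30, with a 95% interval of -0.90 to 0.34 (limma, adjusted p = 0.980). This fit takes 1 mean per co-culture and window, so VGF's fall from 10 to 24 h enters the residual and widens the interval. The early and middle differences were -0.18 ± 0.31 and -0.14 ± 0.33. Over the 3 windows together the adjusted p was 0.9998 (limma, moderated F), and 0 of 11494 genes passed (0%), with 530 at an unadjusted p under 0.05 (4.61%). On the 8 duplicated arrays alone, the change from 0 h to 24 h differed by -0.23 ± 0.13 (95% interval -0.54 to 0.076, limma adjusted p = 0.503), where again 0 genes passed (0%) and 1406 were under an unadjusted 0.05 (12.2%). A model with all 10 times and co-culture by window terms, added after seeing the data, gave -0.19 ± 0.13 for the late window (95% interval -0.48 to 0.10, limma adjusted p = 0.720), with 0 genes passing and 912 under an unadjusted 0.05. The co-cultures were thus not shown to differ in how far VGF declined, and the intervals allow a steeper or a shallower decline beside HPAEC.

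No other granin had a late change near that of VGF. All 6 listed members were tested, and 2 passed upward in the late window, CHGB and SCG5, where 15.5% of all genes changed. SCG5 passed the detection filter only through late arrays, so its call is not read as a test. CHGB, the granule protein chromogranin B, measured 213 and 196 beside HPAEC and 241 and 253 beside H838 at 0 h, and 289 and 350 beside HPAEC and 409 and 330.0 beside H838 at 24 h. Its 24 h arrays were above its 0 h arrays in both co-cultures. The late change was 0.29 ± 0.09 (limma, adjusted p = 0.0343), and the call was lost without any 1 of the 4 arrays at 0 h, under median scaling and with no detection filter, with an adjusted p of up to 0.199. SCG5, the chaperone of the convertase PCSK2, was detected on 0 of 4 arrays at 0 h and 5 of 8 late. Early and in the middle window it was detected on 0 of 6 arrays each. Against the lowest detected signal at 0 h it was at least 1.09-fold higher late. CHGA, SCG2, SCG3 and PCSK1N did not pass, with late log2 changes of 0.04, 0.12, 0.22 and -0.14. No granin passed between co-cultures, where 2.02% of all genes did. The values nearest to VGF's were those of PCSK1N, an inhibitor of the convertase PCSK1, at 0.25 (adjusted p = 0.153).

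Of 14 prohormone processing enzymes 12 had a listed probe and 7 were tested. PCSK1 and PCSK2, the convertases that cut VGF in neuroendocrine cells, had no listed probe, and FURIN, PCSK5, PCSK6 and CPE were detected on 0 arrays. PCSK4, PCSK7, CPD, QPCT, CTSL and MBTPS1 passed in no contrast. PAM, which amidates peptide ends, fell late by 0.19 ± 0.06 (limma log2, adjusted p = 0.0374). That call was lost under median scaling and without 5 of the 8 duplicated arrays, H838 0 h and 24 h replicates 1 and 2 and HPAEC 0 h replicate 2, with an adjusted p of up to 0.618.

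Of 22 genes of dense-core granules and regulated release, 12 were tested and 1 passed. SYT7, a calcium sensor of vesicle fusion, fell in the middle window by 0.47 ± 0.09 (limma log2, adjusted p = 0.00232), where 15.3% of all genes changed. The late change of SYT7 was -0.19 ± 0.09 (adjusted p = 0.152), and 0 members passed late, early or between co-cultures. Among the VGF peptide's binding proteins, C3AR1 was detected on 0 arrays. C1QBP was detected on all 24, with a late change of -0.17 ± 0.07 (adjusted p = 0.105). HSPA8, a cytosolic chaperone, rose late by 0.38 ± 0.06 (limma log2, adjusted p = 0.00087). Its intensity was 12293 and 12208 beside HPAEC and 10724 and 12359 beside H838 at 10 h and 15 h, against 8344 to 8794 at 24 h and 7780.1 to 8782 at 0 h, and was thus highest at 10 h and 15 h.

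**Figure D3:**
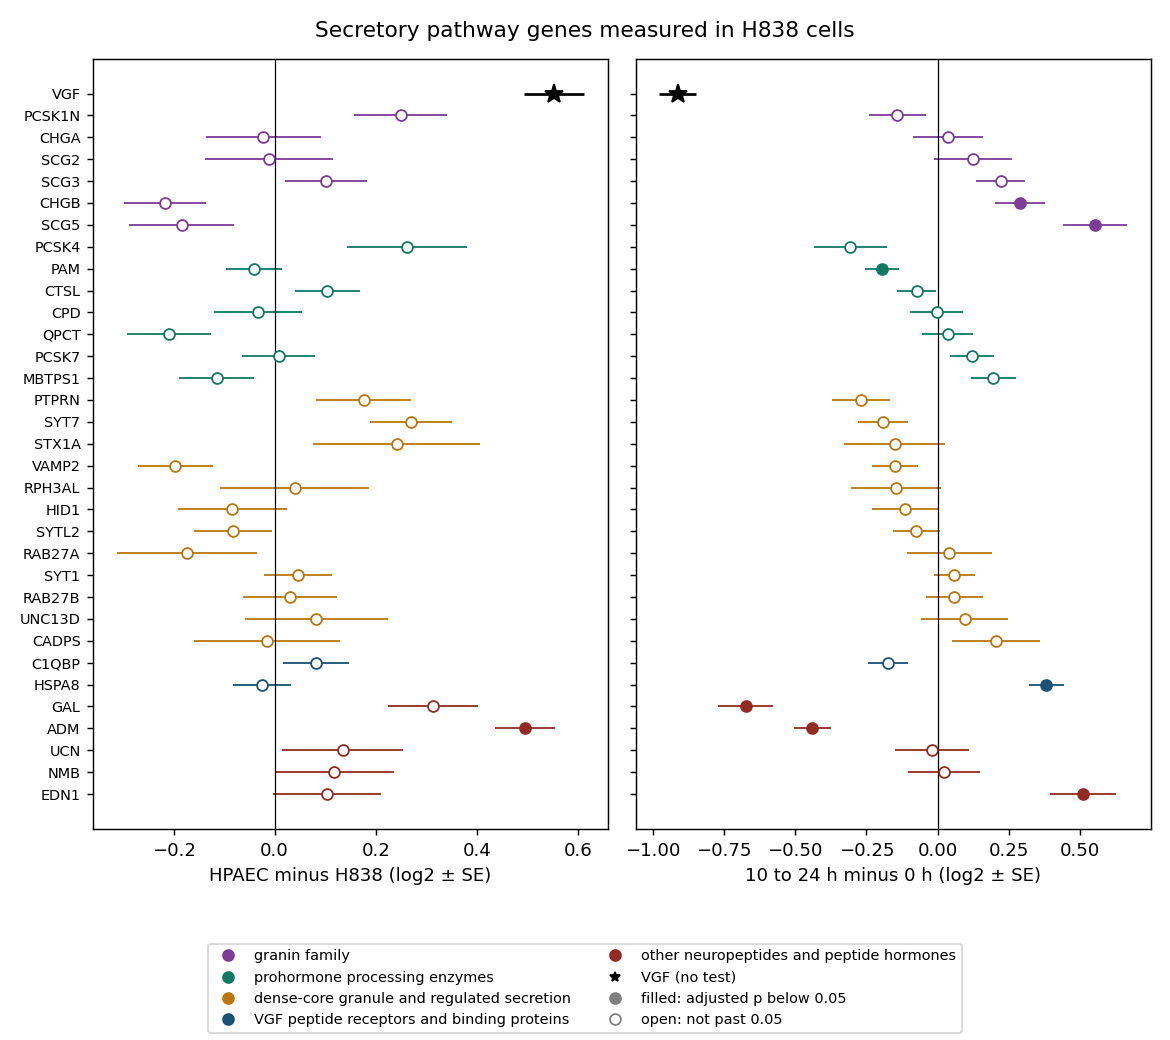
Log2 difference between co-cultures (left) and late change from 0 h (right), each ± SE from the fit over 24 arrays, for VGF and the tested members of the granin, processing, granule, binding protein and peptide hormone lists. VGF (star, no test) is at 0.55 and -0.91, ADM and GAL are the members nearest to it in both panels, and CHGB and SCG5 lie on the other side of 0 late.

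Of 25 other neuropeptides and peptide hormones 22 had a listed probe and 5 were tested. ADM encodes adrenomedullin, a vasodilator peptide. Its intensity beside HPAEC was 2874 and 2829 at 0 h, 3314, 3799 and 3263 at 0.5, 1 and 2 h, 3437, 2590.3 and 2761 at 3, 4 and 5 h, 2143 and 2367 at 10 and 15 h, and 1916 and 1737 at 24 h. Beside H838 it was 2024 and 2096, then 2183, 2362 and 2462, then 2333, 2006 and 2047, then 1793 and 1575, and 1222 and 1270.0 at 24 h. ADM was higher beside HPAEC at every time. The difference was 0.49 ± 0.06 (limma log2, adjusted p = 0.000805), and it missed the threshold under median scaling (adjusted p = 0.0615). ADM fell late by 0.44 ± 0.06 (adjusted p = 0.000435).

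GAL encodes galanin, a neuropeptide also made by some tumour cells. Beside HPAEC its intensity was 775 and 852 at 0 h, 725, 839 and 655 early, 636, 668 and 717 in the middle, 508 and 479.9 at 10 and 15 h, and 441 and 426 at 24 h. Beside H838 it was 634 and 644, then 666, 535 and 632, then 467, 568 and 474, then 560.2 and 439, and 343 and 317 at 24 h. The HPAEC arrays were the higher at every time but 10 h. Its fall late was 0.67 ± 0.10 (limma log2, adjusted p = 0.000379), while the difference between co-cultures was 0.31 ± 0.09 (adjusted p = 0.0797). EDN1, the vasoconstrictor endothelin, was detected on 2 of 4 arrays at 0 h and 7 of 8 late, and rose late by 0.51 ± 0.11 (limma log2, adjusted p = 0.00735). Its size was 0.25 without background correction and 0.26 in the authors' normalized values, with the call kept. UCN and NMB passed in no contrast.

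Of the neurotrophins, known inducers of VGF in neurons, BDNF rose in the middle window by 0.77 ± 0.09 (limma log2, adjusted p = 2.57e-05), from 251 to 294 at 0 h to between 389.6 and 517 at 3 to 5 h. BDNF also rose over the late window, by 0.34 ± 0.08 (limma log2, adjusted p = 0.0117), a call lost without HPAEC 0 h replicate 2 (adjusted p = 0.0645). Its level was 359 to 439 at 10 h and 15 h and 232 to 297 at 24 h. NTRK2 and NTRK3, receptors of BDNF and neurotrophin 3, were detected on 0 arrays, and NGFR, the shared low-affinity receptor, on 9 HPAEC and 3 H838 arrays. NGFR did not pass between co-cultures (0.47 ± 0.16, limma log2, adjusted p = 0.133) or late (-0.49 ± 0.17, adjusted p = 0.0681). CREB1, the factor that binds the CRE, was detected on all 24 arrays with a late change of 0.04 ± 0.07 (adjusted p = 0.770). Of 9 tested members of the CREB group, 2 passed in the middle window (15.3% of all genes) and 1 late (15.5%). EP300, a histone acetyltransferase that CREB recruits, rose in the middle window by 0.51 ± 0.16 (limma log2, adjusted p = 0.0457), a call lost under 10 of 16 alternatives. REST, a repressor of neuronal genes, was detected on 0 of 4 arrays at 0 h and 0 of 6 early. In the middle window it was detected on 4 of 6 arrays and was at least 1.08-fold higher than at 0 h. It passed the detection filter only through middle and late arrays, so its middle call is not read as a test. Late it was detected on 2 of 8 arrays with a mean below the detection floor, and that call was lost under 14 of 15 alternatives.

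Of 20 cyclic AMP and CREB target genes 12 were tested. In the early window 4 rose and 0 fell, where 0.461% of all genes changed, in the middle window 5 rose and 0 fell (15.3% of all genes), and late 4 rose and FOSB fell (15.5% of all genes). FOS also passed the late test, but it was detected on 0 of 4 arrays at 0 h and 0 of 8 late, so no fall is read from it. FOSB, an AP-1 subunit detected on 4 of 4 arrays at 0 h and 1 of 8 late, fell late by 0.65 ± 0.17 (limma log2, adjusted p = 0.0147), a call lost without H838 0 h replicate 1 or HPAEC 0 h replicate 2 (adjusted p of up to 0.0947). The late change of FOSB was -0.31 without background correction, -0.33 in the authors' normalized values and -0.66 under median scaling, with the call kept. FOS, an immediate-early factor, was detected on 6 of 6 early arrays and 0 of 6 in the middle window, and was at least 7.08-fold higher early. It passed the detection filter only through early arrays, so its early call, counted among the 4, is not read as a test. FOSB rose early by 2.76 ± 0.17. NR4A2, an orphan nuclear receptor, rose by 0.48 ± 0.08 in the middle window and by 0.48 ± 0.08 late (limma, adjusted p = 0.0013 and 0.00126). The fitted VGF mean was below 0 h in each of these windows, although H838 at 2 h was at 100.9% of its 0 h mean. No member of the list passed between co-cultures. Of these calls 2 of 4 early (that of FOS among them), 3 of 5 in the middle window and, late, that of NR4A2 held under every alternative.

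Of 10 MAPK activity genes 8 were tested. Early 3 rose (0.461% of all genes changed), in the middle window 4 rose and 2 fell (15.3%), and late 0 passed (15.5%). ETV5, a transcription factor induced by ERK signalling, rose in the middle window by 0.91 ± 0.11 (limma log2, adjusted p = 3.80e-05), and this was the 1 call of the list that held under every alternative. Of 10 genes of the epithelial to mesenchymal transition 5 were tested. TWIST1, a transcription factor that drives it, fell by 0.45 ± 0.12 in the middle window and by 0.41 ± 0.12 late (limma, adjusted p = 0.0184 and 0.023), and both calls were lost without HPAEC 0 h replicate 1 or H838 0 h replicate 1, with an adjusted p of up to 0.123. The late call was also lost under median scaling (adjusted p = 0.0806). Both calls were kept in the authors' normalized values, at -0.21 in the middle window and -0.21 late.

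The courses most like that of VGF were found over the 20 means of co-culture and time, among 8840 genes detected on all arrays. These points share arrays and normalization, and r is given as a description. Pearson's r was 0.959 for PLAC8, a small cysteine-rich protein, 0.912 for ADM, 0.909 for GAL, 0.907 for ZYX, the focal adhesion protein zyxin, and 0.906 for SOD2, the mitochondrial superoxide dismutase. It was 0.903 for FAM174C, 0.898 for CAMK2N1, an inhibitor of calmodulin kinase II, and 0.893 for MMP25, a membrane-anchored metalloproteinase. Within a co-culture, over 10 points each, PLAC8 reached 0.922 beside HPAEC and 0.963 beside H838. Late changes of these 8 genes ran from -0.67 for GAL to -0.26 for ZYX, smaller in size than the -0.91 of VGF.

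The least like were CREG1, a lysosomal glycoprotein (r = -0.962), CRYBA1, a lens crystallin (-0.925), GSTA4, a glutathione transferase (-0.909), and ARPC5, a subunit of the actin-nucleating ARP2/3 complex (-0.907). CRYBA1 was lower beside HPAEC by a log2 difference of -0.70 and stood 1.12 above 0 h late. Under median scaling the sign of r was kept for all 12 genes, which is no support, as they were picked for extreme r on these arrays. There r of ARPC5 was -0.65. Over 4 alternative settings the r nearest 0 was 0.74 for FAM174C, 0.76 for ZYX and -0.75 for GSTA4. It was -0.81 for CRYBA1 and for CREG1, and 0.946 for PLAC8. Of 13 genes looked up, VGF included, 10 had a RefSeq promoter entry, and 0 of the 9 others held TGACGTCA in their window. The motif was in 1.65% of 35116 RefSeq promoters, and in 282 of the 9295 tested genes with a promoter entry, VGF not counted. Against either share, 0 of 9 sets no gene apart.

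**Figure D4:**
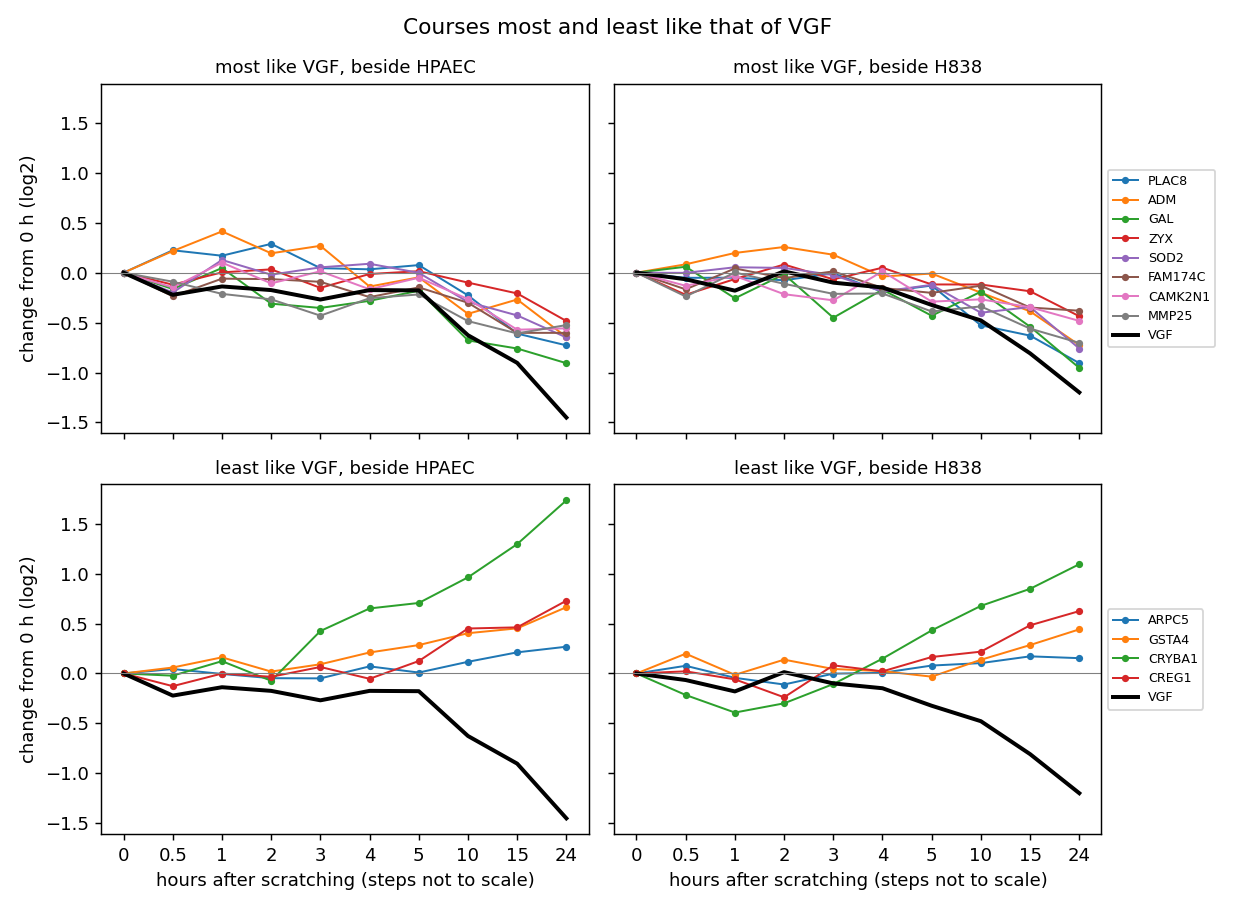
Log2 change from 0 h over the times after scratching (steps not to scale) for VGF (black) and the 8 genes most like it (top) and 4 least like it (bottom), beside HPAEC (left) and H838 (right). The 8 genes lie below 0 at 24 h in both co-cultures, above VGF, and CRYBA1 lies highest of the 4.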

How the data were processed

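RNA of H838 cells was measured on Illumina bead arrays (24 arrays, 2 chips by the slide number in the labels). The deposited table holds a bead intensity and a detection p-value per probe and array, not normalized, per the file headers. The authors' deposited normalized intensity values have array medians of 116.46 to 116.55, against 108.81 to 129.96 before. The software is not given in the sources used here. Per the labels' protocols, biotinylated cRNA was made with an Ambion kit from column-purified total RNA.

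Background was corrected and arrays were quantile normalized with limma 3.58.1 (nec on the detection p-value, offset 16) in R 4.3.3, and fits used log2 values of the deposited intensity. Of 47286 probes, 30080 had 1 gene, 8 several and 17198 none listed. Symbols were checked through Entrez numbers for 30041 probes. Probes detected (p below 0.01) on at least 2 arrays were kept (20054), and each gene was represented by its probe with the highest mean, giving 11494 genes. The number of arrays limits the precision. Duplicates of 0 h and 24 h are the only replicates.

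Co-culture and time were fitted with chip as a term and 10 time levels (12 residual degrees of freedom). The difference between co-cultures in window changes came from 1 mean per co-culture and window (15 degrees of freedom), or from 8 arrays (3). Calls used a Benjamini-Hochberg adjusted p below 0.05 over all genes. Where a gene was not detected on any 0 h array, the fold is a bound against the lowest detected signal of each array. The code was tested on simulated data. VGF and the gene lists were chosen with earlier results of these data known.

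Named genes are VGF, the list members that passed a test or define their list (up to 4 for the wider lists), and the 8 most and 4 least like VGF by Pearson's r. Alternatives were median scaling, no background correction, offset 50, the authors' normalized values, other detection filters, chip left out, as a random block or alone, a replicate block, and each duplicated array left out. Promoter sequences come from RefSeq, GRCh38.p14.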

Additional observations from a re-analysis of the deposited data

How the results depend on the processing

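The difference in VGF between co-cultures stayed within its spread in 17 of 17 settings. By the same measure, VGF's change from 0 h did so in 17 of 18 settings early, 16 of 18 in the middle and 14 of 18 late. Median scaling moved VGF's window changes to -0.23 early, -0.28 in the middle and -0.85 late, and turned the middle difference between co-cultures to 0.15 (limma, adjusted p = 0.840). It left 5 genes called between co-cultures, 20 early, 585 in the middle and 571 late. Without background correction 393 genes were called between co-cultures and the late VGF change was -0.86. The authors' normalized values gave 365 genes, a middle change of -0.16 and a late change of -0.84. Between co-cultures, 423 genes were called with detection on all arrays, 129 with no detection filter, 1723 without the chip term and 1949 with chip as a random block. On chip 1 alone, where all late arrays are HPAEC, the late VGF change was -0.96. The causes of these shifts were not tested.

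Leaving out each duplicated array in turn gave a co-culture difference of 0.52 to 0.57, and VGF changes of -0.15 to -0.10 early, -0.22 to -0.17 in the middle and -0.94 to -0.88 late. The differences between co-cultures in these changes ran from -0.31 to -0.10, from -0.29 to -0.022 and from -0.41 to -0.096, and on the 8 arrays from -0.30 to -0.16. Genes called ran from 10 to 163 between co-cultures, 31 to 56 early, 970 to 1663 in the middle and 856 to 1668 late. The count between co-cultures was 10 without H838 0 h replicate 1 and 18 without HPAEC 0 h replicate 2.

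With a replicate block on the 8 duplicated arrays, the change from 0 h to 24 h differed by -0.25 ± 0.12 (limma, adjusted p = 0.478). Same-numbered arrays deviated together with r of 0.133 at 0 h and 0.00997 at 24 h across genes, so the numbers were not taken as pairs. Of 41 calls of named genes, 15 held under every alternative, 23 were lost under median scaling and 0 reversed. Among the 15 is the late call of FOS, undetected at both ends. Also among them are the calls of SCG5 late, FOS early and REST in the middle window, which are not read as tests.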

Other observations

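Among the tested genes other than VGF, 282 had TGACGTCA within the 250 bases before their RefSeq start. Late after the scratch 27 of them rose and 18 fell (16% called, against 15.5% of all tested genes with a promoter entry). Those that fell include SNX5, a sorting nexin (-0.59 ± 0.07, log2 ± SE), PPP1R15A, a stress-induced phosphatase subunit (-0.52 ± 0.06), and PAX6, a developmental transcription factor (-0.42 ± 0.08). RBM12, an RNA-binding protein, rose by 0.67 ± 0.09. Early 4 rose (DUSP1, EPHA2, MAFF and PPP1R15A) and 1 fell (MEG3), 1.77% against 0.334% of all with an entry. The early call of EPHA2 was lost under 9 of 16 alternatives, and that of DUSP1 under median scaling (limma, adjusted p = 0.208). This early share thus rests on few calls and was not tested. Between co-cultures ACTR3B and PPP1R15A were higher beside HPAEC, and GABARAPL1 and METTL4 were lower (1.42% called against 2.05%). In the middle window 23 rose and 23 fell (16.3% against 15.1%). These calls use limma with Benjamini-Hochberg adjustment over all genes. The late directions were mixed, and genes were named after their values were seen.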
